A study of Homo sapiens with 12 samples.

Results

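The structural matrix genes of endometrial stromal cells are described here: 43 listed genes for collagens, elastic fibre proteins, laminins, adhesive glycoproteins, small proteoglycans and crosslinking enzymes. All probes of these genes that the platform's gene table assigns to a single gene were taken, whatever their values. There were 59 such probes of 54359 on the array, for 40 of the 43 genes. Of these, 56 probes, for 39 genes, had positive values for 2 or more arrays in each group and could be tested, among 53671 probes and 18106 genes in all. FBLN1, EFEMP1 and LAMC1 had no probe of their own, and the LAMA4 probe gave too few positive values.

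The cells were T-HESC, human endometrial stromal cells immortalised with telomerase, and all groups derive from that 1 line. Cultures were starved of serum for 24 h and then were kept for 48 h with vehicle, with 5 ng/ml of tumour necrosis factor alpha (TNFα), with 1 ng/ml of interleukin 1 beta (IL1β), or with the 2 cytokines combined, each at its single dose. Each of the 4 groups had 3 arrays, 1 for each of passage 13 (replicate 1), passage 28 (replicate 2) and passage 15 (replicate 3), on single-colour CodeLink whole-genome slides. The study asked how gene expression in these cells differs with the cytokines. Values below are log2 of the deposited intensity, in which the median probe of an array lies near 0, and a difference of 1 is a doubling. Each probe has its own brightness, so values are compared between arrays and not between genes.

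Fibroblasts and stromal cells build the extracellular matrix from these proteins. Fibrillar collagens, above all the type I trimer of COL1A1 and COL1A2 chains, give tensile strength, type IV collagen and laminins form the sheet of basement membranes, fibrillins and elastin form elastic fibres, and lysyl oxidases crosslink collagen and elastin. In the endometrium the stromal matrix is remodelled through each menstrual cycle, and fibrotic matrix surrounds endometriotic lesions. Inflammatory cytokines are known to act on collagen genes in fibroblasts of several tissues.

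Regulatory sequence is shown for a pair of genes whose arrays ran together, as those of other collagen pairs did. It is also shown for the gene with the lowest adjusted p in the list with both cytokines. RefSeq promoter windows of GRCh38.p14, from 250 bases before to 50 bases after the gene's start, were matched for 30 of the 43 genes. COL1A1, COL1A2, COL3A1, DCN and LUM were among those without a window. COL4A1 and COL4A2, which encode the main chains of type IV collagen, lie head to head on chromosome 13, with starts 127 bases apart, so that their windows share 226 bases. COL16A1 encodes a collagen associated with fibrils. In the lines below, written from 5′ to 3′ on each gene's own strand, capitals mark matches on either strand to the GC box (GGGCGG) and to the CCAAT box (CCAAT).
COL4A1 promoter (chr13:110307108-110307407, minus strand): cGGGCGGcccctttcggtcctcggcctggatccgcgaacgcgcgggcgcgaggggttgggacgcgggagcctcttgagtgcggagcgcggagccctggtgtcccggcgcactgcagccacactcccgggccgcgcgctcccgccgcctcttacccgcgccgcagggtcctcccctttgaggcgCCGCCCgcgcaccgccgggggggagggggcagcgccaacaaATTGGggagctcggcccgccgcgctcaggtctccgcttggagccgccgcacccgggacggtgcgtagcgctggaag
COL4A2 promoter (chr13:110307034-110307333, plus strand): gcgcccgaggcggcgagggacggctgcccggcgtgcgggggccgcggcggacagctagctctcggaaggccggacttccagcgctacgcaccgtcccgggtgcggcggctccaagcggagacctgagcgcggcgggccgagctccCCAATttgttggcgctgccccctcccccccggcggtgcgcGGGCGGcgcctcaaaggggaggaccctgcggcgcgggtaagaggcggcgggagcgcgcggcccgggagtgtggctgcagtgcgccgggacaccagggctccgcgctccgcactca
COL16A1 promoter (chr1:31703968-31704267, minus strand): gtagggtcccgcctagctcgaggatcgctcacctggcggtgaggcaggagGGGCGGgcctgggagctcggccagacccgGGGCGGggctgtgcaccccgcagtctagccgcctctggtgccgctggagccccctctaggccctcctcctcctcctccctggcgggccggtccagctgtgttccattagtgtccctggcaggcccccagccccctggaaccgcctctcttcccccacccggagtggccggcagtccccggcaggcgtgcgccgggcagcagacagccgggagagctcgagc
The GC box was in 72.2% of the 36 windows matched for the listed genes (26 windows) and in 45% of all 35116 windows of the table. A CCAAT box was in 30.6% against 34.6%, and a TATA box (TATAAA) in 16.7% against 11.5%. A match to the NF-kB consensus was in 8.33% (COL6A2, COL7A1 and COL15A1) against 5.91%. A match to the AP-1 consensus was in 2.78% (POSTN) against 7.71%. These matches describe letters only. COL16A1 had GC boxes alone of the marked motifs, with 2 matches and no CCAAT box, while the COL4A1 window held 2 GC boxes and 1 CCAAT box and the COL4A2 window 1 of each.

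Before any comparison, 3 arrays stood apart as low in these genes: vehicle replicate 3, TNFα replicate 3 and IL1β replicate 2. Set against the mean of the other arrays of its group, the median matrix gene lay 1.81 lower on vehicle replicate 3, with 34 of 39 genes lower and 27 lower by more than 1. The median value was −1.33 on TNFα replicate 3 (35 of 39 lower) and −0.97 on IL1β replicate 2 (34 of 38 lower). Over all 18106 genes the same medians were −0.11, −0.06 and −0.14. Of all genes, 53.8%, 55% and 61.8% were lower on these arrays, and 21.9%, 10% and 8.92% were lower by more than 1. On vehicle replicate 3 a further 13.2% of all genes were higher by more than 1. Of the matrix genes, 17 were lower by more than 1 on each of the 3 arrays, against 3.26% of all genes. Vehicle replicate 1 went the other way, with a median of 1.01 and 20 of 39 genes higher by more than 1 (18% of all genes). The mean it was set against included the low vehicle replicate 3. On the 3 arrays with both cytokines the medians of the matrix genes were 0.06, −0.04 and 0.02. The low arrays came from passages 15, 15 and 28, and each passage also had arrays that were not low.

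**Figure D1:**
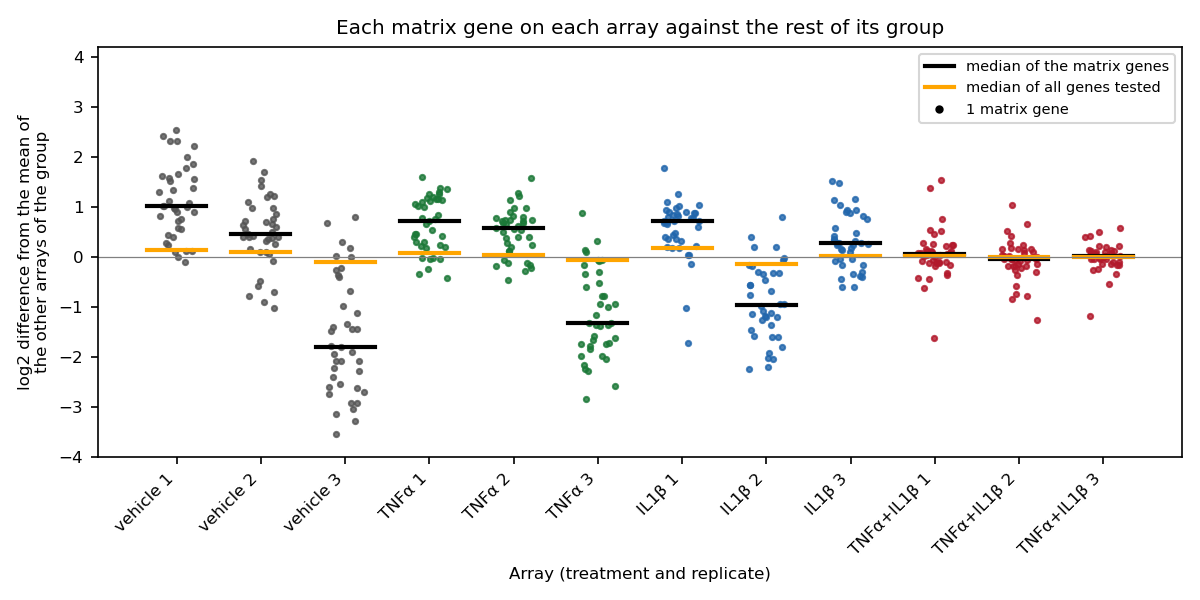
Each point is 1 of the 39 matrix genes on 1 of the 12 arrays, placed by its log2 difference from the mean of the other arrays of its group; black lines are medians of the matrix genes and orange lines medians of all genes tested. Vehicle replicate 3, TNFα replicate 3 and IL1β replicate 2 have their black lines at −1.81, −1.33 and −0.97, while the arrays with both cytokines lie close to 0. Vehicle replicate 1 has its black line at 1.01.

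The deviations on these arrays were alike but not identical. COL11A1 and LOX, for example, were low on vehicle replicate 3 (−2.62 and −1.45) and much less so on IL1β replicate 2 (−0.19 and −0.32). Across genes, the deviations on vehicle replicate 3 and TNFα replicate 3 correlated with Pearson's r = 0.90 (39 matrix genes; 0.44 over 17828 genes). For vehicle replicate 3 and IL1β replicate 2 it was 0.75 (38 genes; 0.39 over all), and for TNFα replicate 3 and IL1β replicate 2 0.85 (38 genes; 0.31 over all). Genes of an array share its RNA and hybridisation, so these values describe the arrays. By the mean of the 3 arrays COL12A1, a collagen that coats fibrils, deviated most, with −3.14, −2.58 and −2.04 on the 3 arrays in that order, followed by COL5A1 (−3.55, −2.17 and −1.80) and the fibulin FBLN2 (−2.93, −2.84 and −1.61). At the other end, 6 genes stayed within 0.5 of their group on all 3 arrays. Among those with small deviations were the small proteoglycans lumican (LUM: 0.03, 0.10 and −0.03) and decorin (DCN: −0.26, −0.17 and −0.34), the matrix glycoprotein SPARC (−0.40, −0.34 and 0.20) and type III collagen (COL3A1: −0.01, 0.32 and 0.40).

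**Figure D2:**
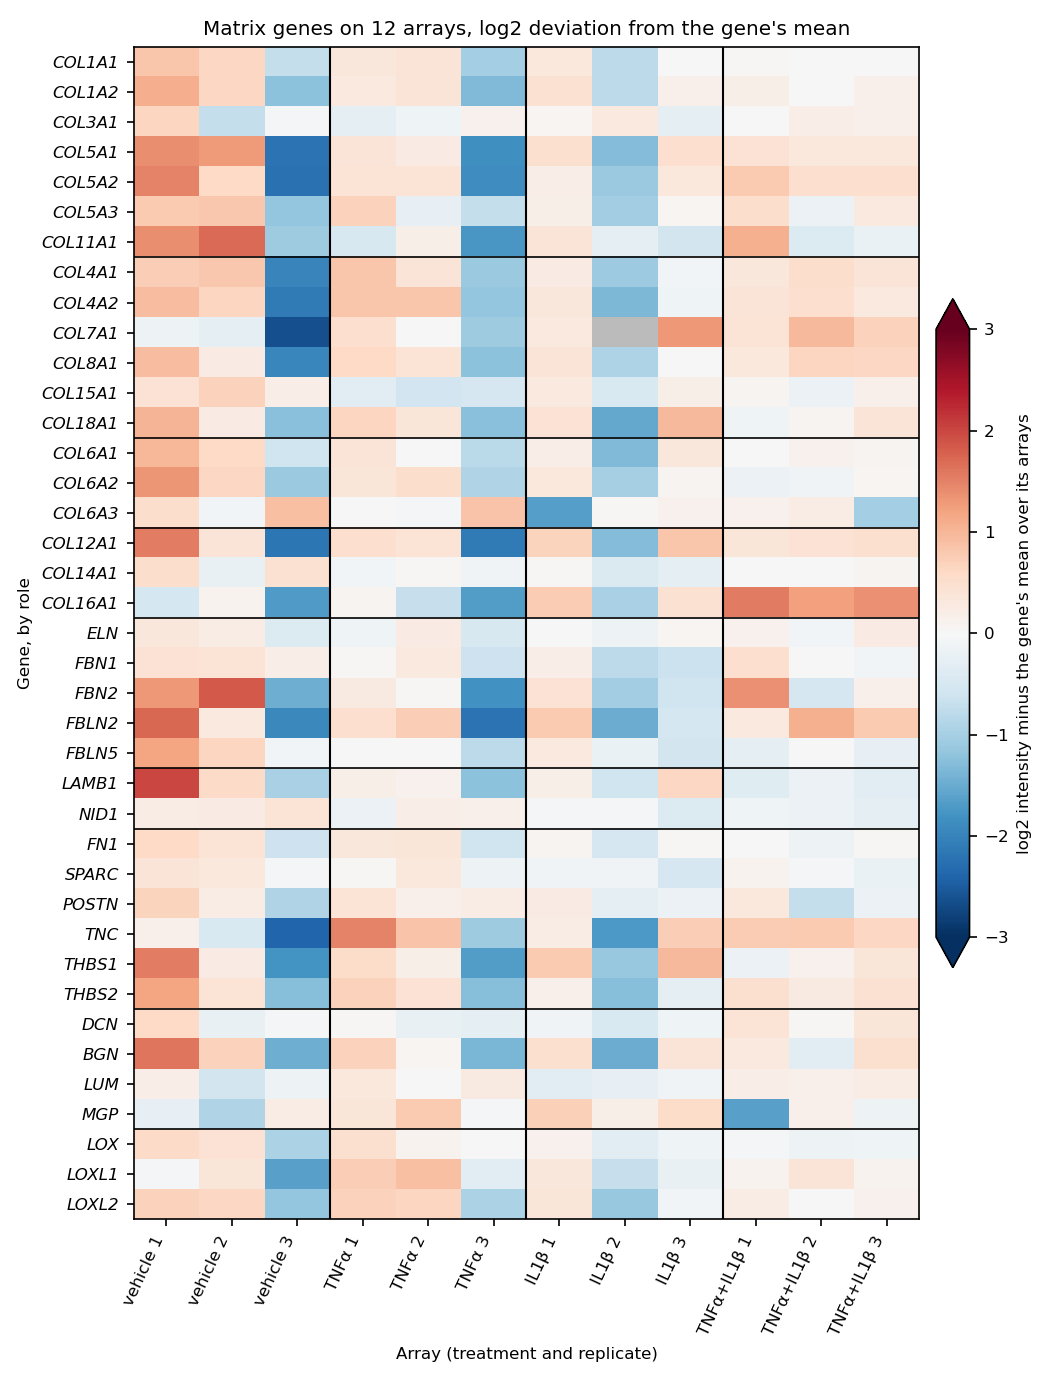
Colour gives the log2 intensity of each matrix gene (rows, grouped by role with lines between groups) on each of the 12 arrays, minus that gene's mean over its arrays; grey marks COL7A1 on IL1β replicate 2, which had no positive value. The columns of vehicle replicate 3, TNFα replicate 3 and IL1β replicate 2 are blue in most rows, and COL16A1 is red on the 3 arrays with both cytokines.

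Probes listed for the same gene did not always show these low arrays. FBN1 encodes fibrillin-1, the scaffold of elastic microfibrils. Its brightest probe deviated by −0.22 on vehicle replicate 3, and its other probe by −3.80. For nidogen-1 (NID1), which links laminin to type IV collagen, the 2 probes deviated by 0.18 and −3.18 there. The second probes of COL1A1 and COL4A1 deviated by 1.51 and 0.27, against −1.45 and −2.75 on the brightest probes. These second probes were dimmer, with means over the arrays of 2.62 and 1.94 against 9.03 and 6.66. Both NID1 probes lay near the array median (means 0.07 and −0.41). By contrast all 3 probes of lysyl oxidase (LOX) lay between −1.45 and −0.90, and both probes of SPARC between −0.46 and −0.40. The gap between probes of a gene was over 1 on vehicle replicate 3 in 6 of the 9 matrix genes with several probes above the array median, and in 38.4% of 1987 such genes overall. On vehicle replicate 1 it was 34.2%, on TNFα replicate 3 15.3%, on IL1β replicate 2 10.8%, on the other 5 arrays of vehicle and single cytokines 3.47% to 5.08%, and on the arrays with both cytokines 0.0503% to 0.654%. The part of this disagreement in the low readings was not tested. Below, a gene is represented by its probe with the highest mean.

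**Figure D3:**
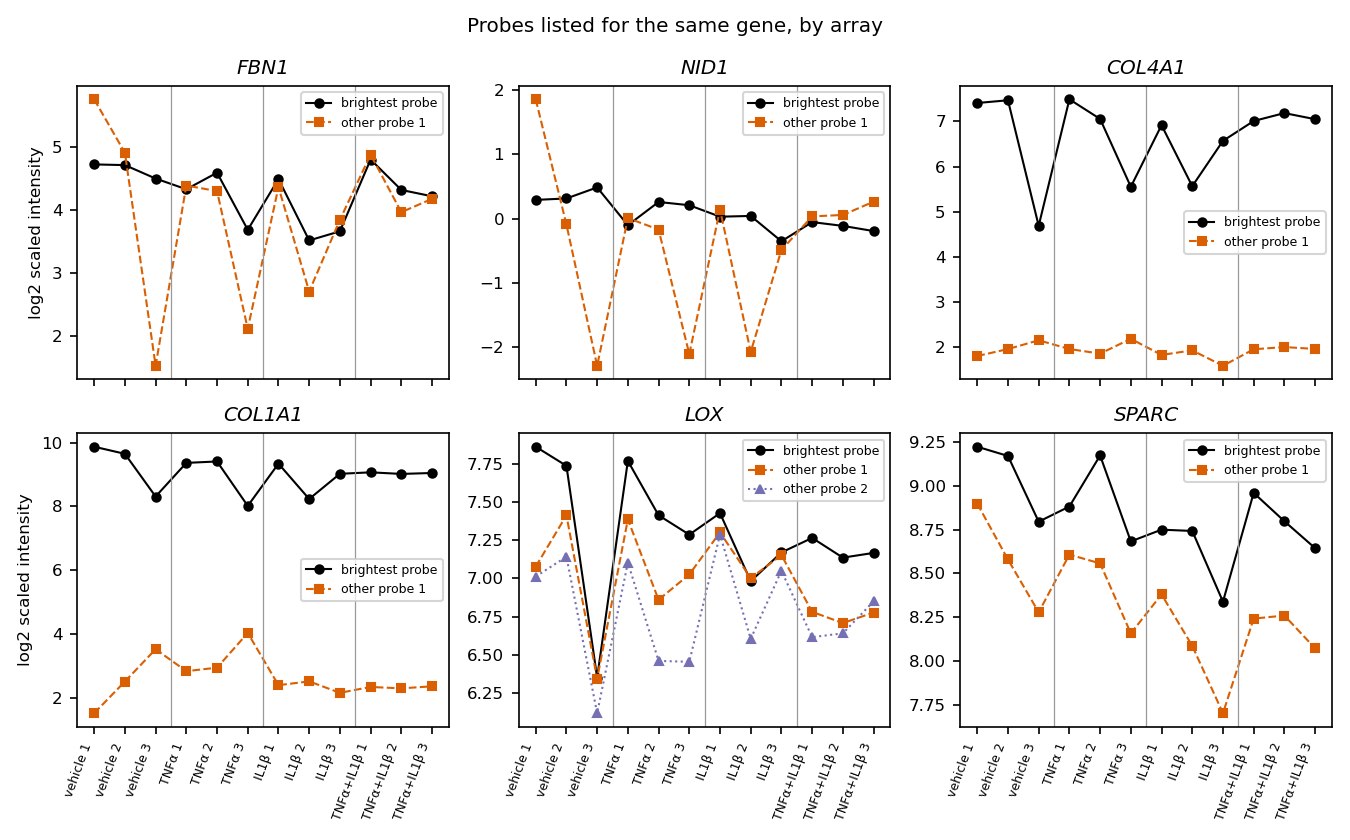
Lines join the log2 intensities of probes listed for the same gene over the 12 arrays, with vertical lines between the groups; black is the probe with the highest mean, colours are the other tested probes. The 2 probes of FBN1 and of NID1 part on the low arrays, reaching −3.80 and −3.18 below the other vehicle arrays on 1 probe only, while the 3 probes of LOX and the 2 of SPARC move together.

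In the 4 groups the spread between replicates was wide with vehicle and narrow with both cytokines. The median SD of the 39 genes was 1.05 with vehicle, 0.79 with TNFα, 0.67 with IL1β and 0.16 with both, against 0.54, 0.30, 0.29 and 0.14 over all genes. With vehicle 21 of the 39 genes had an SD above 1 (17.6% of all genes), and with both cytokines 0 did (4.53% of all genes). This spread sets the precision of what follows: the median standard error of a change from vehicle was 0.59.

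No matrix gene was called in any comparison by limma with Benjamini-Hochberg adjustment over all probes tested (adjusted p under 0.05). Against vehicle the counts were 0 of 39 with TNFα (0.0466% of all probes were called), 0 of 39 with IL1β (0.00559%) and 0 of 39 with both (0.248%). At an unadjusted p under 0.05 they were 2, 3 and 3 genes, against 6.61%, 8.14% and 12.7% of all genes. Both cytokines against TNFα alone (0.00186% called), both against IL1β alone (0% called) and the interaction (0% called) also gave 0 of 39. At an unadjusted p under 0.05 these had 1, 1 and 3 genes (2.56%, 2.56% and 7.69%), against 5.31%, 3.52% and 2.88% of all genes. The count was 0 for the 56 single probes too. A p above the threshold does not show that a gene was unchanged. In whole cultures, fewer cells making a transcript and less of it per cell cannot be told apart.

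The median change of the 39 genes was −0.24 with TNFα, −0.26 with IL1β and 0.04 with both, against −0.02, −0.15 and −0.10 over all genes. With TNFα 28 of 39 lay below vehicle, with IL1β 30 and with both 19 (all genes: 52.6%, 67.3% and 59.5%). Without the 3 arrays that stood apart the medians were −0.23, −0.51 and −0.45 (all genes: −0.05, −0.18 and −0.18). In that fit 32, 34 and 31 of 39 lay below vehicle (all genes: 54.7%, 64.6% and 62.4%). Again 0 were called (0%, 0% and 0.152% of all probes called). The median with both cytokines thus changed sign with the arrays used: it was −0.45 without vehicle replicate 3 and 0.39 without vehicle replicate 1. With TNFα it was 0.18 without vehicle replicate 1 and 0.18 without TNFα replicate 3, and with IL1β 0.15 without vehicle replicate 1 and −0.03 without IL1β replicate 2. Quantile normalization gave −0.06 with IL1β and 0.28 with both, and weighting the arrays by quality gave −0.44 and −0.29. The weights of vehicle replicates 1, 2 and 3 were 0.31, 1.89 and 0.17, so that fit leaned on vehicle replicate 2.

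Few genes separated the groups on every array. None was higher on all TNFα arrays than on any vehicle array (4.26% of all genes) and 2 of 39 were lower (5.13% of both the matrix genes and all genes). With IL1β 1 was higher and 3 lower, or 2.56% and 7.69% (all genes: 2.76% and 8.73%). The higher gene, COL7A1, had a value on only 2 of the 3 IL1β arrays. With both cytokines 3 were higher and 2 lower, or 7.69% and 5.13% (all genes: 6.99% and 13%). These shares lie near those of all genes or below them. Against TNFα alone, both cytokines gave 3 higher and 1 lower (7.69% and 2.56%; all genes: 5.96% and 17.8%), and against IL1β alone 6 higher and 1 lower (15.4% and 2.56%; all genes: 9.65% and 5.96%). Without the 3 arrays 4 were higher and 15 lower with TNFα (all genes: 18.5% and 23.6%). With IL1β 4 were higher and 22 lower (12.5% and 33.1%), and with both 3 were higher and 18 lower (14.8% and 33.8%). These counts are descriptions, as are all medians, changes, standard errors and adjusted p-values given without the 3 arrays. The arrays were set aside because these same genes read low on them. Removing a low vehicle array, with none removed from the group with both cytokines, by itself moves these genes below vehicle. All 3 comparisons share the same 2 vehicle arrays there, one of which, replicate 1, read high in these genes.

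**Figure D4:**
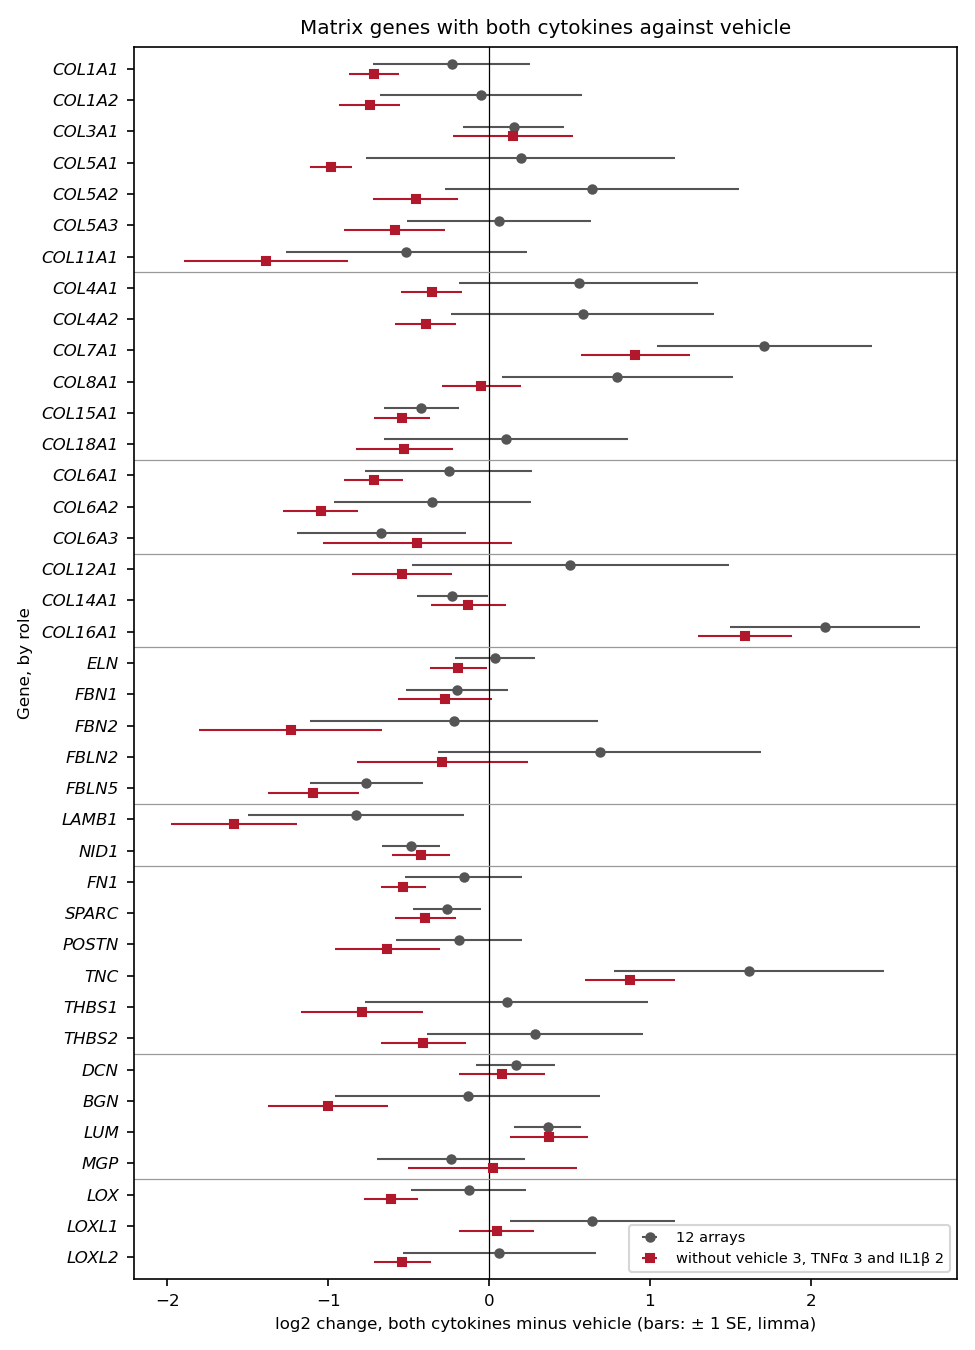
Points give the log2 change with both cytokines against vehicle for each of the 39 matrix genes, by role, with ± 1 SE from limma: grey for all 12 arrays, red without vehicle replicate 3, TNFα replicate 3 and IL1β replicate 2. COL16A1, COL7A1 and TNC lie to the right of 0 in both fits, and COL5A1 goes from 0.20 to −0.99.

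Among fibrillar collagens, all 7 lay below vehicle with TNFα (median −0.35), 6 of 7 with IL1β (−0.26) and 3 of 7 with both (0.06), and 0 were called. COL1A1 read 9.87, 9.65 and 8.31 on vehicle replicates 1, 2 and 3, then 9.36, 9.41 and 8.02 with TNFα. It read 9.34, 8.23 and 9.02 with IL1β and 9.07, 9.02 and 9.05 with both cytokines. The groups overlapped, the lowest array of each of the first 3 groups being the one that stood apart, and the change with both was −0.23 ± 0.49 (SE, n = 3 per group; limma adjusted p = 0.887). Its partner chain COL1A2 followed it closely over the 12 arrays (r = 0.98, and 0.96 over the 9 arrays without the low ones), reading 9.49, 9.03 and 7.19, then 8.70, 8.79 and 7.08, then 8.86, 7.63 and 8.55, and 8.57, 8.42 and 8.56 with both.

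COL3A1, the fibrillar collagen of compliant tissues, did not share the low arrays. It read 6.15, 4.79 and 5.46 with vehicle, 5.25, 5.37 and 5.63 with TNFα, 5.56, 5.79 and 5.24 with IL1β and 5.50, 5.71 and 5.65 with both. The vehicle arrays enclosed all 9 others, and the 3 changes were −0.05, 0.06 and 0.15.

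The type V chains regulate the width of type I fibrils. On the probes with the highest mean, COL5A1 and COL5A2 had the widest vehicle spread of the list (SD 2.05 and 1.95). Other probes of FBN1 (2.24), COL14A1 (2.24) and NID1 (2.08) spread more. COL5A1 read 5.77, 5.67 and 2.17 with vehicle, 4.78, 4.64 and 2.54 with TNFα, 4.86, 3.08 and 4.90 with IL1β and 4.81, 4.69 and 4.71 with both. Vehicle replicates 1 and 2 were thus above all other arrays, and vehicle replicate 3 below them. The change with both cytokines was 0.20 ± 0.96 (limma adjusted p = 0.957). Without the 3 arrays it was −0.99 ± 0.13 (limma adjusted p = 0.0592), which was the lowest adjusted p of the list in that fit. Those arrays were set aside because these genes, COL5A1 among them, read low on them, so that p is a description only. COL5A2 was likewise lowest on vehicle replicate 3, with 5.53, 4.64 and 1.80, then 4.44, 4.44 and 2.16, then 4.23, 2.93 and 4.34, and 4.82, 4.54 and 4.53. COL11A1, a minor fibrillar chain, read 3.53, 3.85 and 1.07 with vehicle, 1.67, 2.32 and 0.41 with TNFα, 2.53, 1.87 and 1.59 with IL1β and 3.22, 1.74 and 1.94 with both. Its change with TNFα, −1.35 ± 0.75, was the largest decrease of the list there and did not pass (limma adjusted p = 0.777). COL5A3 changed by −0.24, −0.41 and 0.06.

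The basement membrane and network collagens lay above vehicle for 5 of 6 genes with both cytokines (median 0.57), 4 of 6 with TNFα and 2 of 6 with IL1β. COL4A1 read 7.41, 7.47 and 4.69 with vehicle, 7.49, 7.06 and 5.55 with TNFα, 6.92, 5.57 and 6.57 with IL1β and 7.01, 7.18 and 7.05 with both. COL4A2, which starts from the same stretch of chromosome 13 printed above, read 7.69, 7.42 and 4.63, then 7.59, 7.58 and 5.61, then 7.11, 5.40 and 6.62, and 7.16, 7.27 and 7.06. The pair correlated with r = 0.99 over 12 arrays and 0.86 over the 9 without the low arrays. Chains encoded on different chromosomes also ran together: COL1A1 with COL1A2 (0.98 and 0.96) and COL5A1 with COL5A2 (0.97 and 0.70). For COL6A1 with COL6A2 the values were 0.92 and 0.85. The part of the shared start was not tested. The changes of COL4A1 and COL4A2 with both cytokines were 0.56 ± 0.74 and 0.58 ± 0.82. Without the 3 arrays they were −0.36 and −0.39, so the direction turned with the arrays used.

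COL7A1 encodes the anchoring fibrils that tie basement membrane to stroma. It read 5.35, 5.21 and 2.87 with vehicle and 6.01, 5.49 and 4.43 with TNFα. With IL1β it read 5.79 and 6.81 (replicates 1 and 3, replicate 2 having no positive value) and with both 5.91, 6.47 and 6.19. Each array with IL1β, alone or combined, that had a value was above the vehicle arrays, and IL1β replicate 2 could not be compared. The changes were 1.82 ± 0.75 with IL1β (n = 2 against 3; limma adjusted p = 0.491) and 1.71 ± 0.67 with both (adjusted p = 0.335). Without the 3 arrays they were 1.02 and 0.91 (adjusted p = 0.323 and 0.183).

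COL15A1, whose product sits at the outer face of basement membranes, had the lowest adjusted p of the list with TNFα. It read 2.13, 2.37 and 1.88 with vehicle, 1.38, 1.12 and 1.18 with TNFα, 1.97, 1.23 and 1.86 with IL1β and 1.76, 1.51 and 1.85 with both. The TNFα arrays were all below the vehicle arrays, by 0.90 ± 0.23, without passing (limma adjusted p = 0.399, and 0.250 without the 3 arrays). The arrays with both cytokines were also below vehicle, and above TNFα alone. COL8A1 and COL18A1 changed by 0.80 and 0.11 with both cytokines, and the direction turned for each without the 3 arrays (−0.05 and −0.53).

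The type VI chains form beaded filaments around cells, and all 3 lay below vehicle in each comparison. COL6A2 read 8.08, 7.37 and 5.64 with vehicle, 7.10, 7.27 and 5.85 with TNFα, 7.07, 5.74 and 6.83 with IL1β and 6.57, 6.65 and 6.80 with both. Only vehicle replicate 3 kept the groups from separating, and without the 3 arrays the change with both was −1.05 ± 0.23 (limma adjusted p = 0.093). COL6A3 was measured near the bottom of the signal range, at −2.60, −3.19 and −2.22 with vehicle, −3.13, −3.15 and −2.25 with TNFα, −4.76, −3.08 and −2.99 with IL1β and −2.997, −2.90 and −4.13 with both, below the array median throughout. COL6A1 changed by −0.46, −0.58 and −0.25.

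COL16A1, a collagen that attaches to fibrils and microfibrils, gave the largest change of the list with both cytokines. It read 1.00, 1.63 and −0.18 with vehicle, 1.60, 0.83 and −0.15 with TNFα, 2.29, 0.55 and 1.99 with IL1β and 3.07, 2.75 and 2.89 with both. All 3 arrays with both cytokines were above every other array. The change was 2.09 ± 0.59 against vehicle (SE, n = 3 per group; limma adjusted p = 0.204), 2.14 ± 0.59 against TNFα alone (adjusted p = 0.850) and 1.29 ± 0.59 against IL1β alone. None passed. Without the 3 arrays the change from vehicle was 1.59 ± 0.29 (adjusted p = 0.077), and the interaction of the cytokines was 1.35 ± 0.83 on all arrays (adjusted p = 1).

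The other 2 fibril-associated collagens differed from it. COL12A1 read 5.79, 4.65 and 2.08 with vehicle, 4.77, 4.66 and 2.13 with TNFα, 4.92, 2.97 and 5.09 with IL1β and 4.63, 4.69 and 4.73 with both, so that its 3 lowest arrays were the 3 that stood apart. COL14A1 read 2.36, 1.63 and 2.29, then 1.76, 1.88 and 1.74, then 1.88, 1.40 and 1.56, and 1.82, 1.84 and 1.93, with overlapping groups and changes of −0.30, −0.48 and −0.23. Its other 2 probes gave −1.84 and −1.23 with both cytokines, so the size of its change depended on the probe.

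**Figure D5:**
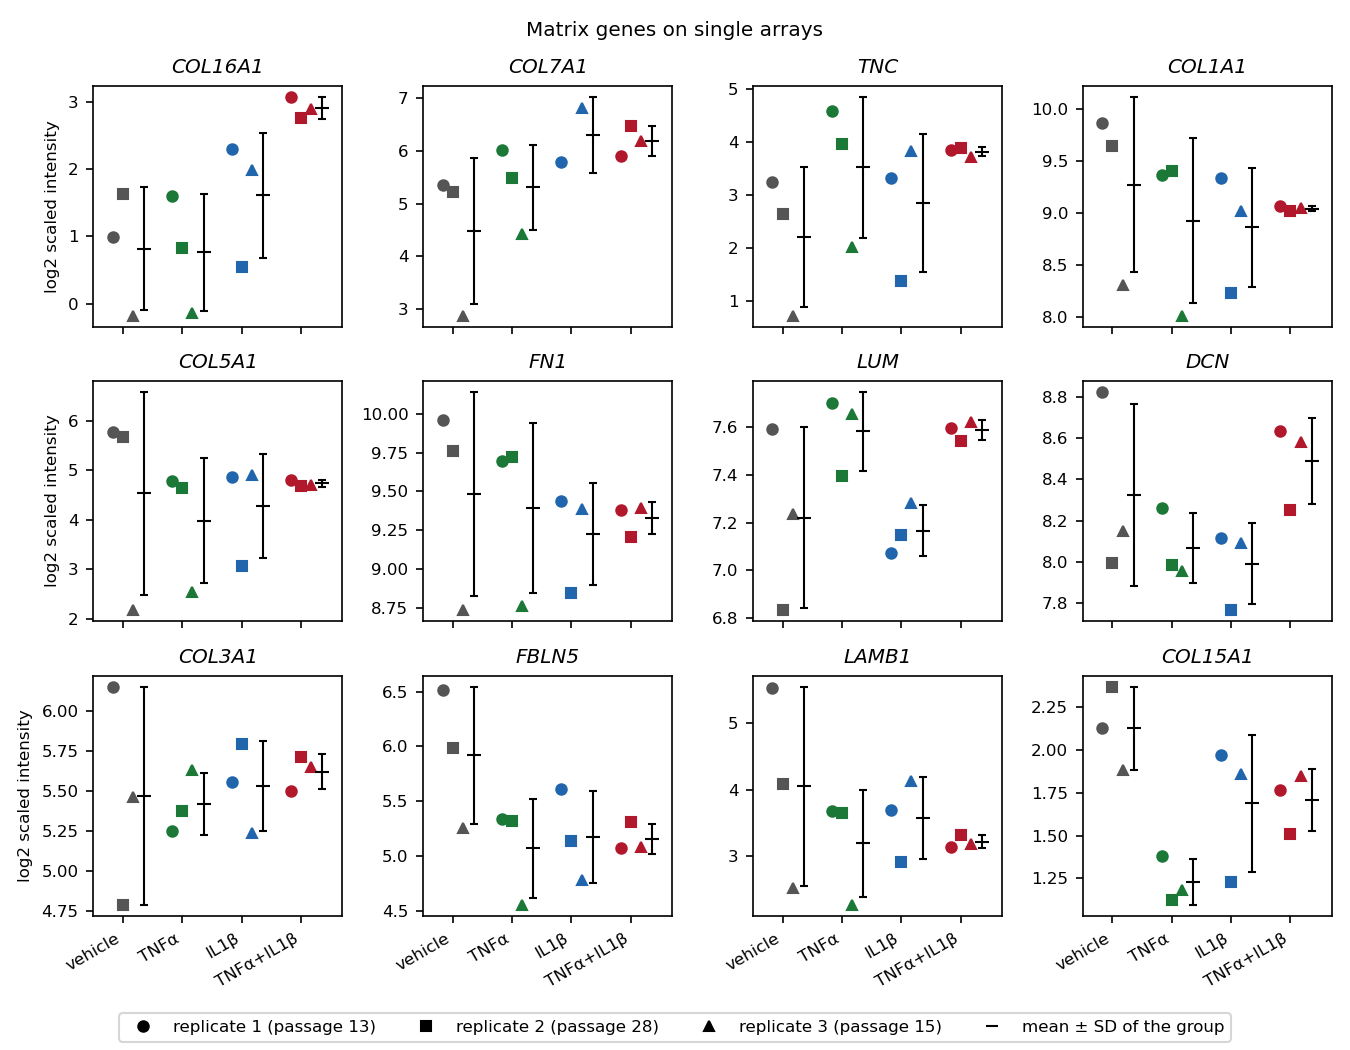
Each point is the log2 intensity of a matrix gene on 1 array, by treatment and with its own vertical axis for each gene; shapes mark the replicates (passages) and black bars the mean ± SD of each group (n = 3; COL7A1 n = 2 with IL1β). COL16A1 lies at 2.75 to 3.07 on the arrays with both cytokines and at or below 2.29 on the other 9, while the groups of COL1A1, COL5A1 and FN1 overlap.

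In the elastic fibre group all 5 measured genes lay below vehicle with TNFα and with IL1β, and 3 of 5 with both. FBLN5, a fibulin needed to assemble elastic fibres, read 6.51, 5.98 and 5.26 with vehicle, 5.34, 5.32 and 4.55 with TNFα, 5.61, 5.13 and 4.78 with IL1β and 5.07, 5.31 and 5.08 with both. Vehicle replicate 3 overlapped the treated arrays, and the other 2 vehicle arrays lay above all 9. The changes were −0.85 ± 0.35, −0.75 ± 0.35 and −0.76 ± 0.35 (limma adjusted p = 0.667, 0.534 and 0.399), and −0.92, −1.06 and −1.09 without the 3 arrays (adjusted p = 0.379, 0.308 and 0.108).

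FBN1 read 4.72, 4.71 and 4.50 with vehicle, 4.33, 4.59 and 3.68 with TNFα, 4.49, 3.52 and 3.66 with IL1β and 4.80, 4.32 and 4.22 with both. The IL1β arrays were below the vehicle arrays, narrowly so for replicate 1, with a change of −0.75 ± 0.31 (limma adjusted p = 0.489). On the other FBN1 probe the groups overlapped (−0.43 with IL1β). FBN2, a fibrillin made mostly during development, had a wide spread, reading 5.36, 5.90 and 2.58, then 4.33, 4.10 and 2.23, then 4.49, 3.01 and 3.45, and 5.42, 3.55 and 4.21. FBLN2 read 5.02, 3.60 and 1.38, then 3.82, 4.04 and 1.09, then 4.09, 1.83 and 2.79, and 3.60, 4.37 and 4.10, again lowest on the arrays that stood apart. Elastin (ELN) stayed within 0.80 to 1.62 on all arrays.

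Of the laminins and nidogen, 2 of 4 genes were measured, both below vehicle in each comparison. LAMB1, a laminin beta chain, read 5.52, 4.09 and 2.53 with vehicle, 3.68, 3.64 and 2.27 with TNFα, 3.69, 2.92 and 4.12 with IL1β and 3.14, 3.33 and 3.19 with both. Its change with both cytokines was −0.83 ± 0.67, the largest decrease of the list (limma adjusted p = 0.642), and −1.59 ± 0.39 without the 3 arrays (adjusted p = 0.104). NID1 had the narrowest vehicle spread and read 0.29, 0.31 and 0.49 with vehicle, −0.10, 0.26 and 0.21 with TNFα, 0.03, 0.04 and −0.35 with IL1β and −0.05, −0.11 and −0.19 with both. Every treated array was below every vehicle array, with changes of −0.24, −0.46 and −0.48 (limma adjusted p = 0.866, 0.474 and 0.307). Taking each comparison singly, 5.13%, 8.73% and 13% of all genes were lower on every array. The share for all treated arrays together was not counted. This probe lay near the array median, with a mean of 0.07. The narrow spread held for this probe only. The other NID1 probe had a vehicle SD of 2.08, did not separate the groups and gave 0.29 with both.

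The adhesive and matricellular glycoproteins mediate cell attachment and signalling in the matrix. Fibronectin (FN1) read 9.96, 9.76 and 8.73 with vehicle, 9.69, 9.72 and 8.76 with TNFα, 9.44, 8.85 and 9.39 with IL1β and 9.38, 9.21 and 9.39 with both. The groups overlapped, and the change with both was −0.16 ± 0.36 (limma adjusted p = 0.899), or −0.53 ± 0.14 without the 3 arrays (adjusted p = 0.110). SPARC, which binds collagen, read 9.22, 9.17 and 8.80, then 8.88, 9.17 and 8.68, then 8.75, 8.74 and 8.34, and 8.96, 8.80 and 8.64. Its IL1β arrays were below every vehicle array (−0.45 ± 0.21, adjusted p = 0.531), narrowly so (8.75 against 8.80). On the other SPARC probe the groups overlapped, with IL1β replicate 1 (8.38) above vehicle replicate 3 (8.28), and the change was −0.53.

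Tenascin-C (TNC), a glycoprotein of injured and remodelling tissue, was higher in each comparison. It read 3.24, 2.65 and 0.72 with vehicle, 4.58, 3.96 and 2.02 with TNFα, 3.33, 1.38 and 3.84 with IL1β and 3.86, 3.89 and 3.72 with both. The arrays with both cytokines were above every vehicle array (6.99% of all genes were higher in that comparison). The changes were 1.32 ± 0.84 with TNFα, 0.65 ± 0.84 with IL1β and 1.62 ± 0.84 with both (limma adjusted p = 0.819, 0.843 and 0.453). Without the 3 arrays they were 1.33, 0.64 and 0.88 (adjusted p = 0.285, 0.384 and 0.142). Periostin (POSTN) and the thrombospondins THBS1 and THBS2 changed by −0.19, 0.11 and 0.29 with both cytokines, and by −0.63, −0.79 and −0.41 without the 3 arrays.

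Among the small proteoglycans, which bind collagen fibrils and limit their growth, DCN and LUM had narrow ranges. LUM read 7.59, 6.83 and 7.24 with vehicle, 7.70, 7.39 and 7.65 with TNFα, 7.07, 7.15 and 7.28 with IL1β and 7.60, 7.54 and 7.62 with both. Its arrays with both cytokines were above every IL1β array, and vehicle replicate 1 lay among them. The change from vehicle was 0.37 ± 0.21 (limma adjusted p = 0.492). With arrays weighted by their quality the limma adjusted p was 0.0652, in a fit that called 3.12% of all probes. That fit gave vehicle replicate 2, the lowest array for LUM, a weight of 1.89. Vehicle replicates 1 and 3 had weights of 0.31 and 0.17, so the p rests mostly on 1 vehicle array. DCN read 8.82, 7.99 and 8.15, then 8.26, 7.99 and 7.96, then 8.12, 7.77 and 8.09, and 8.63, 8.25 and 8.58, also higher with both cytokines than on any IL1β array (0.50 ± 0.24; 9.65% of all genes were higher in that comparison). Biglycan (BGN) changed by −0.48, −0.49 and −0.13.

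MGP, an inhibitor of matrix calcification, had the lowest interaction value of the list and is named for that after its values were seen. It averaged 0.93 ± 0.56 with vehicle, 1.61 ± 0.40 with TNFα, 1.72 ± 0.28 with IL1β and 0.69 ± 0.95 with both (SD, n = 3). The array with both cytokines at −0.39 (replicate 1) was the lowest, and the interaction of −1.71 ± 0.65 did not pass (limma adjusted p = 1). Over the list the median interaction was 0.52, against 0.07 for all genes, with 6 of 39 genes below 0 (43.1% of all genes). It varied with single arrays: the median was 0.13 without TNFα replicate 3, 0.16 without vehicle replicate 1 and 1.07 without vehicle replicate 3.

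The lysyl oxidases crosslink collagen and elastin, and 0 of 3 passed. LOX read 7.86, 7.74 and 6.35 with vehicle, 7.77, 7.41 and 7.29 with TNFα, 7.43, 6.98 and 7.17 with IL1β and 7.26, 7.14 and 7.17 with both, where all arrays lay below all TNFα arrays (−0.30 ± 0.36; 17.8% of all genes were lower in that comparison). That gap was narrow (7.26 against 7.29). Another LOX probe also separated these groups (−0.33), and the remaining LOX probe did not (0.03). LOXL1, which acts on elastic fibres, read 5.50, 5.91 and 3.92, then 6.29, 6.46 and 5.21, then 5.90, 4.86 and 5.33, and 5.67, 5.94 and 5.65. Its change with TNFα was 0.88 ± 0.51 (limma adjusted p = 0.794). LOXL2 changed by 0.09, −0.33 and 0.06.

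Genes that fold, modify and process collagen gave 0 calls as well, in 24 measured of 25 listed. Their median changes were 0.00 with TNFα, −0.08 with IL1β and 0.16 with both. The lowest adjusted p, 0.156 by limma, belonged to ADAMTS3, a procollagen protease, with both cytokines (1.80 ± 0.43). Of 34 measured further matrix genes of 35 listed, 0 were called, with medians of −0.31, −0.29 and −0.10. ASPN, the proteoglycan asporin, came closest, at −3.40 ± 0.54 with TNFα (limma adjusted p = 0.0888) and −2.38 ± 0.54 with both (adjusted p = 0.137). Both lists were low on the same 3 arrays, with median deviations of −1.36, −1.002 and −0.83 for the processing genes and −1.67, −0.98 and −0.85 for the further matrix genes.

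Markers were read to check the label. All 7 measured stromal markers of 10 listed, among them THY1, PDGFRA and PDGFRB, lay above the array median on all 12 arrays. So did 4 of 7 epithelial markers (KRT8, KRT18, KRT19 and MUC1), 2 of 5 endothelial, 3 of 5 leukocyte and 2 of 3 smooth muscle markers. EPCAM, CLDN4, CDH5, KDR, PTPRC, CD14 and MYH11 lay below it on all arrays. The stromal markers VIM, HOXA10 and HOXA11 were not measured. The summed intensity of the epithelial list ran from 87.6 to 121.8 with vehicle, 60.01 to 107.5 with TNFα, 26.8 to 65.2 with IL1β and 39.7 to 41.5 with both. KRT18 was called lower with both cytokines (−1.58 ± 0.26, limma adjusted p = 0.0447), a call that was lost whenever any 1 array of the compared groups was left out (adjusted p = 0.0616 to 0.149). The stromal list, which holds COL1A1 and COL1A2, summed to 581.4 to 1862 with vehicle and 974.5 to 1047 with both, with median deviations of −1.01, −0.97 and −0.95 on the 3 arrays. For the epithelial list these were 0.02, −0.52 and 0.10. The part of the marker levels in the matrix values was not tested.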

How the data were processed

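Total RNA from 12 T-HESC cultures was labelled and hybridised to 1 single-colour CodeLink slide each, per the labels. The authors deposited 1 linear intensity per probe and array; how images were read, corrected and normalized was not given in the sources used here, and scaling to the array median was inferred from the values, since every array median lay near 1. The code −9999 (0.716% of values) and values at or below 0 (1.10%) were set to missing before log2. The medians of the arrays lay within 0.05 of each other in log2, so no further scaling was applied. Symbols came by Entrez identifier from the platform's gene table for all 59 probes.

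Group means of all 12 arrays were fitted with limma 3.58.1 in R 4.3.3 (8 residual degrees of freedom, two-sided), with Benjamini-Hochberg adjustment over all 53671 probes. With 3 arrays a group, an exact permutation test has a smallest two-sided p of 0.1, so single genes rest on limma. On simulated data for TNFα plus IL1β against vehicle (53671 probes), the fit recovered 10% of 50 probes changed by 1 on the log2 scale, 44% at 2, 82% at 3 and 88% at 4, with 8 false calls. The simulated noise was independent between probes, with 1 SD per probe for all groups, and the probes came from the whole array. In the data many genes shifted together on an array, and the median SD of the matrix genes was 1.05 with vehicle and 0.16 with both. These shares therefore need not hold for the matrix genes.

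The genes and gene lists were chosen with earlier results of these data known. Arrays are given for called genes, for COL1A1, COL1A2, COL3A1 and FN1, for the 2 genes of each role with the lowest p with both cytokines, and for the 5 widest and 3 narrowest vehicle spreads; others by change or range. COL4A1, COL4A2 and MGP were added after their values were seen. Same-numbered arrays share a passage, per the labels. The 18 such pairs of arrays had residual correlations of −0.196 to 0.31 (mean 0.00712), with 3 above 0.1.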

Additional observations from a re-analysis of the deposited data

How the results depend on the processing

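The count of matrix genes called stayed at 0 in all 119 combinations of comparison and alternative: quantile normalization, an offset of 0.1 before the log, leaving out dim or incomplete probes, robust trended variances, weighting arrays by quality, the passage as a block, the compared groups alone, 1 probe per gene, leaving out each array or passage, and leaving out the 3 arrays that stood apart. The lowest adjusted p in any of them was 0.0592 (COL5A1, both cytokines against vehicle, without the 3 arrays). That fit left out arrays on which these same genes read low. With the passage as a replicate block the counts were 0 and the medians −0.24, −0.26 and 0.04, as without it, while the probes called over the whole array went from 25 to 13 with TNFα, from 3 to 2 with IL1β and from 133 to 88 with both. Weighting arrays by quality called 1677 probes with both, in a fit where vehicle replicate 2 carried most of the weight of its group. KRT18 with both cytokines was still called with the block (adjusted p = 0.0465) and in 8 of 19 alternatives in all (adjusted p = 0.00714 to 0.381 over the 19), with the same direction in each. Medians moved by less than their spread between arrays (SD 0.92), but not always with the same sign. That spread is of single arrays and includes the 3 that stood apart. Staying within so wide a range does not show that the medians were stable. Both cytokines against vehicle gave the opposite sign in 6 of 19 alternatives (−0.49 to 0.39 over those leaving out arrays or passages, −0.29 with array weights), TNFα in 2 of 19 (−0.65 to 0.18) and IL1β in 2 of 19 (−0.99 to 0.15). Against TNFα alone it was 3 of 19 (−0.18 to 0.52), while against IL1β alone (0.05 to 0.49) and for the interaction (0.13 to 1.07) it was 0. Quantile normalization moved the median of all genes by over 0.1 for IL1β (−0.15 to −0.02) and both cytokines (−0.10 to 0.02), and that of the matrix genes from −0.26 to −0.06 and from 0.04 to 0.28. In the simulation, with 3 arrays a group, a change of 1 on the log2 scale was seldom detected.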
